A study of Mus musculus with 16 samples.

Results

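A set of 10 receptor genes of the colony-stimulating factor and cytokine families was followed across marrow cell classes: Csf1r, Csf2ra, Csf2rb, Csf2rb2, Csf3r, Kit, Il3ra, Il6ra, Il6st and Ifngr1. They were taken by gene symbol, and all of them were found among the 27998 genes counted in each of 8 single-cell libraries. The study asked how IL1β exposure and loss of Tet2 act on blood-forming cells. Lineage-depleted bone marrow came from 16 C57BL/6 mice aged 6 to 12 weeks, with 4 mice in each of 4 groups, formed by 2 genotypes (WT or Tet2-KO), each given vehicle or IL1β. WT mice were Tet2fl/fl. Tet2-KO mice were Tet2-/- through Vav-Cre, in which the Vav promoter drives Cre in blood cells, so an effect of the Cre transgene and the loss of Tet2 cannot be told apart. IL1β was injected into the peritoneum at 500 ng per mouse per day for 5 weeks, and controls received vehicle. Each library pooled 2 mice of 1 group, whose cells carried different hashtag antibodies.

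These receptors carry the signals that set the output of the marrow. Csf1r and Kit are receptor tyrosine kinases, for the macrophage factors CSF1 and IL34 and for stem cell factor. Csf2ra, Il3ra and Il6ra are ligand-binding chains that need a signalling partner: the common beta chain encoded by Csf2rb (and, for IL3 in the mouse, the related chain encoded by Csf2rb2) or gp130, encoded by Il6st. Csf3r encodes the G-CSF receptor of the neutrophil line, and Ifngr1 the ligand-binding chain of the interferon gamma receptor. Apart from the kinases Csf1r and Kit, they signal through JAK kinases and STAT factors.

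Of the 121405 barcodes, 94917 cells were kept, 57896 were given to 1 mouse by their hashtags, and 41209 of these fell into 1 of 18 cell classes. Classes were gated on single cells by UMIs of 83 marker genes, none of them among the 10 receptors, and are named "-like": hematopoietic stem cell (HSC)-like, multipotent progenitor (MPP)-like, immature myeloid progenitor (IMP)-like, megakaryocyte-erythrocyte progenitor (MEP)-like, erythroid colony-forming unit (CFU-E)-like, common lymphoid progenitor (CLP)-like and so on. Mature classes were among them despite the lineage depletion. Libraries held 56010493 to 99197115 UMIs, and mice 698 to 6432 assigned cells, the fewest in WT vehicle mouse 2. Pairs of libraries shared 11 to 57 barcodes. In the pools with a mouse of each sex, transcripts of both sexes were found under each hashtag. WT IL1β mouse 3 and WT vehicle mouse 2, with Y-linked genes at 173 and 127 CPM, also had the female transcript Xist at 278 and 75.0 CPM. Their pool mates, with Xist at 2451 and 1500.1 CPM, had Y-linked genes at 10.1 and 10.3 CPM. In the female mice of the other pools Y-linked genes were at 0.102 to 0.646 CPM. The cause was not tested. With sex as a covariate 9 and 14 receptor pairs were called with IL1β, beside 9 and 15. The covariate gives each mouse 1 sex, so this fit cannot address transcripts of both sexes under a hashtag. Levels are CPM, the UMIs of a gene per 1000000 UMIs of a class in 1 mouse, scaled by edgeR's trimmed mean of M values (TMM-scaled CPM). They rest on 3′ counts without a length scale, so they are compared within a gene and not between genes. Reads at the 3′ end of Tet2 do not check the knockout. Csf2rb and Csf2rb2 are near-identical neighbours, with 20031 bases between them on chromosome 15, and reads may be split between them, so their values are uncertain.

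In WT mice with vehicle, the receptors differed in the classes that held them. Csf1r was highest in monocyte-like cells, at 121, 63.4, 147 and 119.5 CPM in the 4 mice (113 ± 35.1 (SD, n = 4)). The next classes were plasmacytoid dendritic-like cells at 74.9 ± 12.7 (SD, n = 3), monocyte progenitor-like cells at 66.9 ± 9.81 (SD, n = 4) and class II dendritic-like cells at 62 ± 22.7 (SD, n = 3). The gap below monocyte-like cells was larger than the SD but the mice overlapped, and the next 3 classes did not differ beyond their spread. Csf2ra was also highest in monocyte-like cells, at 175, 233, 172 and 168 CPM. Every mouse lay above those of the class II dendritic-like cells, the second class, which had 101, 150.4 and 106 CPM. The next class, neutrophil-like cells, was at 102 ± 13.1 (SD, n = 4) and overlapped with the dendritic class.

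Csf2rb marked the basophil-like class, with 276, 215, 243 and 311 CPM, above every mouse of the monocyte-like class at 132, 106, 112 and 109.6 CPM. Neutrophil-like cells at 54.9 ± 16.1 (SD, n = 4), the next class, lay below all monocyte-like values. Il3ra had its top in the same class, at 138, 81.9, 105 and 132 CPM, although MPP-like mice reached into that range (18.2 to 95.6 CPM). Csf2rb2 was highest in basophil-like cells too, at 47.7 ± 8.27 (SD, n = 4). It was followed by plasmacytoid dendritic-like cells at 33.7 ± 1.94 (SD, n = 3), whose mice did not overlap with either neighbour in the order. The alpha and beta chains of the IL3 receptor thus both peaked in basophil-like cells.

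Csf3r, the G-CSF receptor, had its highest levels in 3 classes. They were 53.9, 81.3, 79.6 and 79.2 CPM in neutrophil-like, 64.2, 68.7, 75 and 63.5 CPM in granulocyte progenitor-like and 54.1, 69.2, 48.5 and 64.2 CPM in HSC-like cells, and these 3 classes overlapped. Kit was highest in HSC-like cells at 281, 161, 305 and 337 CPM. MEP-like cells, gated on Gata1 and Gata2, had 204, 181 and 277 CPM in 3 mice, MPP-like cells 105, 200.2 and 224 CPM and immature myeloid progenitor (IMP)-like cells 96.1, 161, 146 and 152 CPM. From HSC-like to CFU-E-like cells, further down the order at 134 ± 12.9 (SD, n = 4), no neighbours differed beyond their spread. Monocyte-like cells were last, at 11.8, 0, 5.86 and 9.9 CPM.

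**Figure D1:**
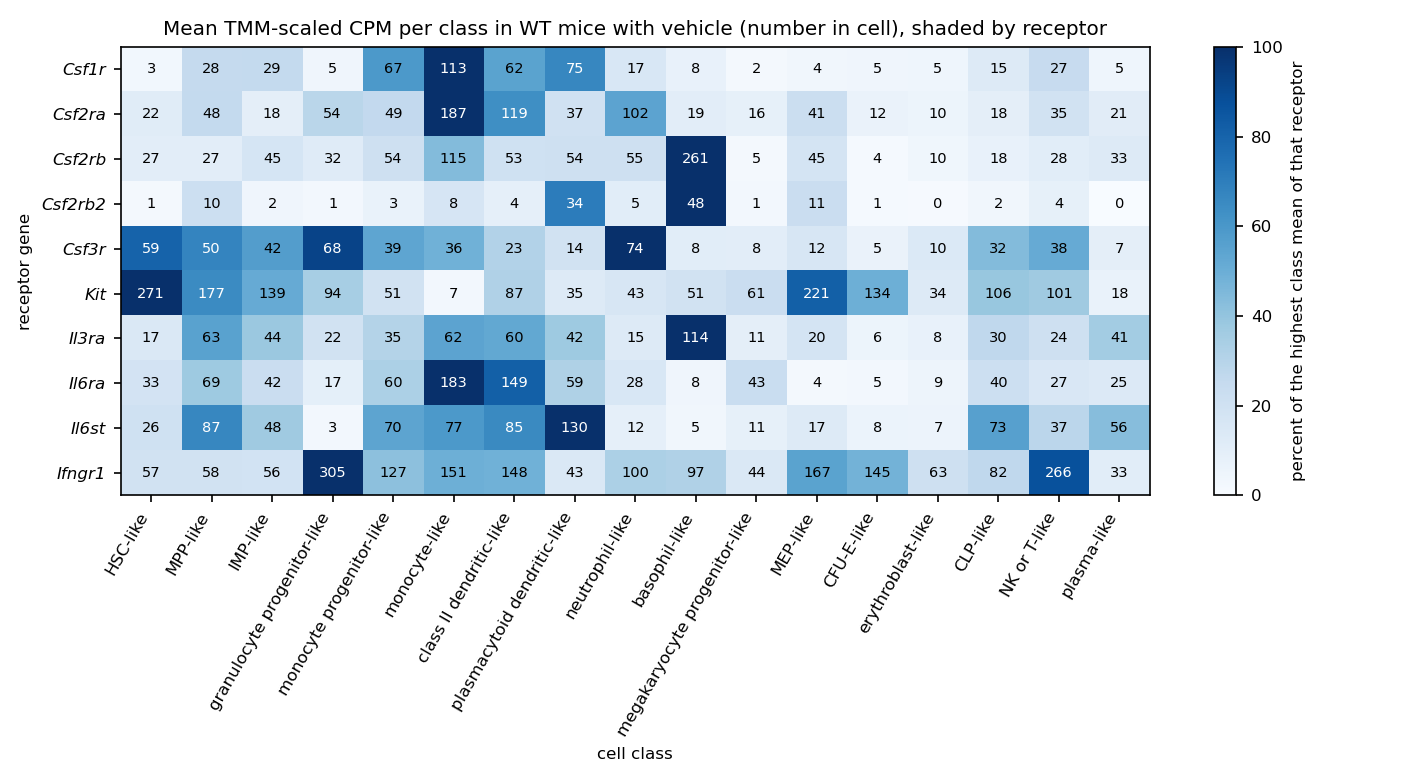
Mean TMM-scaled CPM of the 10 receptor genes (rows) in 17 cell classes (columns) of WT mice with vehicle, with the mean printed in each cell and the colour giving the percent of that gene's highest class. The darkest cells are monocyte-like for Csf1r, Csf2ra and Il6ra, basophil-like for Csf2rb, Csf2rb2 and Il3ra, and HSC-like for Kit.

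Il6ra peaked in monocyte-like cells at 198, 211, 141 and 184 CPM. Class II dendritic-like cells at 113, 126 and 208 CPM overlapped with them, and MPP-like cells came next at 68.7 ± 48.7 (SD, n = 3). Its signalling partner Il6st was highest in plasmacytoid dendritic-like cells at 137, 122 and 132 CPM and broad below that, with no neighbours among the first 6 classes differing beyond their spread. Granulocyte progenitor-like cells were at the bottom of the order for Il6st, at 0.469, 6.6, 4.24 and 1.61 CPM. Ifngr1 showed a different order: granulocyte progenitor-like cells came first, at 284, 334, 279 and 322 CPM, and overlapped with NK or T-like cells at 179, 324 and 296 CPM. Plasma-like cells were lowest at 33.1 ± 11.9 (SD, n = 3).

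In the other 3 groups the same class stood first for Csf1r, Csf2ra, Csf2rb, Csf3r, Kit, Il3ra and Il6ra. Csf2rb2 was led by plasmacytoid dendritic-like cells in Tet2-KO mice with vehicle. Il6st was led by CLP-like cells in WT mice with IL1β and by monocyte-like cells in Tet2-KO mice with IL1β, groups in which fewer than 3 mice had enough plasmacytoid dendritic-like cells. Ifngr1 was led by eosinophil-like cells in Tet2-KO mice with IL1β, at 381, 571 and 464 CPM, a class that had enough mice in no other group.

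Shares of cells with a UMI were taken over the cells of all 16 mice, IL1β mice included, with each cell thinned to 1500 UMIs. The thinning left out 0 to 320 shallower cells of a class. Kit was seen in 39.2% of HSC-like cells and 1.44% of monocyte-like cells, a mature class that should lack it (61.5% and 5.62% before thinning, at medians of 2837 and 4549 UMIs per cell). Csf1r was seen in 18.5% of monocyte-like and 0.199% of MEP-like cells, and Il6ra in 25.6% of monocyte-like cells and 0 of 503 MEP-like cells. At the thinned depth that allows up to 3 cells with a UMI and sets no limit on cells that express the gene, since 1.74% of MEP-like cells had an Il6ra UMI before thinning. Csf2rb was seen in 34.8% of basophil-like and 0.742% of CFU-E-like cells, and Il3ra in 23.5% of basophil-like and 0.998% of erythroblast-like cells. Il6st was seen in 17.3% of plasmacytoid dendritic-like and 0.517% of granulocyte progenitor-like cells. Ifngr1 ranged from 40.1% of granulocyte progenitor-like to 5.59% of plasma-like cells. Csf2ra and Csf3r reached 21.6% and 11.8% in their top classes, and Csf2rb2 no more than 7.97%.

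Across the 17 class means of WT mice with vehicle, the genes most like each receptor were found by Pearson's r of log2(CPM + 1), as a description over classes that share libraries. Csf1r followed the monocyte genes Ms4a6c (r = 0.96), Cfp (0.945) and Cx3cr1 (0.944). Il6ra was closest to Arhgap31 (0.924), Fam102b (0.913) and Susd3 (0.891), and Il6st to Slc29a3 (0.922), 5031439G07Rik (0.902) and Scpep1 (0.886). Il3ra was closest to Man2b1 (0.91), Zmat5 (0.909) and Tet2 (0.886), the gene deleted in the Tet2-KO mice, measured here in mice that carry it. For Kit the closest were Myc (0.895), Wdr77 (0.887) and Elp3 (0.879). Csf2ra was closest to Sat1 (0.9), Mtm1 (0.887) and Rhog (0.876), and Csf2rb to Plekhg3 (0.882), Napsa (0.878) and Myl12b (0.869). Csf2rb2 was closest to Lmo4 (0.821), Pdik1l (0.813) and Padi2 (0.792), Csf3r to Clec4e (0.821), Lbp (0.821) and Plppr3 (0.805), and Ifngr1 to Svip (0.707), Ndufb3 (0.705) and Ptgr1 (0.699). Among the receptors themselves, the most alike pair was Csf2rb with Il3ra (0.82), followed by Il6ra with Il6st (0.745).

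The first tested question was what 5 weeks of IL1β did to the receptors. The test could be run for 115 of 160 receptor and class pairs that passed edgeR's filter on low counts, in 16 classes. Kit and Ifngr1 passed in all 16, and Csf2rb2 in 3. In WT mice 9 of 115 pairs (7.83%) were higher with IL1β and none lower past an adjusted p of 0.05 (quasi-likelihood test of edgeR, Benjamini-Hochberg over all genes of a class). Over all genes, 9.24% of 105542 gene and class pairs were called, 3.63% higher and 5.61% lower. In Tet2-KO mice 15 of 115 pairs (13%) were higher and none lower, against 11.3% of all pairs, 4.75% higher and 6.51% lower. Against calls in either direction the receptor shares were near the background, and against higher calls they lay above it, a difference that was not tested. The median log2 fold change over the tested pairs was 0.27 in WT and 0.23 in Tet2-KO, beside medians of all genes between -0.02 and 0.05 in the classes and comparisons. Scaled by library totals alone, all-gene medians moved up by 0.02 to 0.24, and 15 and 22 pairs were higher. Leaving out 1 mouse gave 2 to 10 calls in WT, with 2 without WT vehicle mouse 4 or WT IL1β mouse 3, 4 without WT vehicle mouse 3, 5 without WT vehicle mouse 1 and 6 without WT IL1β mouse 4. It gave 6 to 16 in Tet2-KO, with 6 without Tet2-KO vehicle mouse 3, 7 without Tet2-KO vehicle mouse 4 and 8 without Tet2-KO IL1β mouse 1 or 2. The mice of 1 library were more alike than mice of the group's other library, and with the 2 pools of a group as its replicates 4 and 7 pairs were called. By Xist and Y-linked genes, Tet2-KO vehicle mice 1 and 2 were female and mice 3 and 4 male, and Tet2-KO IL1β mice the reverse. In these groups library and sex cannot be told apart.

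Promoters are shown for the 4 receptors called with IL1β in more than 1 class, the genes most of the results below turn on. Whether they changed together was not tested. Each is the 250 bases before the RefSeq start, 5′ to 3′ on the gene's strand, GRCm38.p6, with motif letters in capitals.
Ifngr1, chr10:19591699-19591948, plus strand: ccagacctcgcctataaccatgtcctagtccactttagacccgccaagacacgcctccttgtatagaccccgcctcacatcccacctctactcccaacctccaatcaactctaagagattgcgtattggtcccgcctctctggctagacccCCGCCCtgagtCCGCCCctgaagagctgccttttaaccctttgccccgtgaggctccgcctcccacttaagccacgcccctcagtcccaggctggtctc
Il6ra, chr3:89913197-89913446, minus strand: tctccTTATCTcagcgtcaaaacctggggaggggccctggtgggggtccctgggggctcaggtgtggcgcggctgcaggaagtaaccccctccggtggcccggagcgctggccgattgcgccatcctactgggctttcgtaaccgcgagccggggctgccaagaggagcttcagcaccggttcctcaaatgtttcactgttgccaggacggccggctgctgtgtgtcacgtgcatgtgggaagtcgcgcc
Kit, chr5:75574737-75574986, plus strand: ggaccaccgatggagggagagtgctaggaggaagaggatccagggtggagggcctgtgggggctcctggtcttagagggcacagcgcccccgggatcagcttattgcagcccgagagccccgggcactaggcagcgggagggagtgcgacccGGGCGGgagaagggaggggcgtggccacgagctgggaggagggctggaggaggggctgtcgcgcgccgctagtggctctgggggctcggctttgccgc
Il3ra, chr14:14346245-14346494, plus strand: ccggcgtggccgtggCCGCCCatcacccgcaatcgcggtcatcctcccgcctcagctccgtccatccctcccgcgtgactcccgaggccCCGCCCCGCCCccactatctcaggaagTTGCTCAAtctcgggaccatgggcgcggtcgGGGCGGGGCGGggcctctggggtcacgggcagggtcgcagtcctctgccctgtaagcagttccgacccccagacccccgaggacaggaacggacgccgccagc

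Searched on both strands, the GC box GGGCGG was in the promoters of Ifngr1, Kit and Il3ra, and in 32.7% of all 32851 mouse promoters of that length. The C/EBP letters TTGCNNAA stood in Il3ra 134 bases before the start and in 9.56% of all promoters, and the GATA letters AGATAA in Il6ra 245 bases before the start and in 9.99%. The AP-1 letters TGANTCA were in none of the 8 receptor promoters searched, which says only that these letters are not in these windows, and in 6.75% of all promoters. The STAT letters TTCNNNGAA were in 7.02% of all promoters and, among the 8, in Csf2rb2 alone, 15 bases before the start. All of these are matches of letters, not measured binding.

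**Figure D2:**
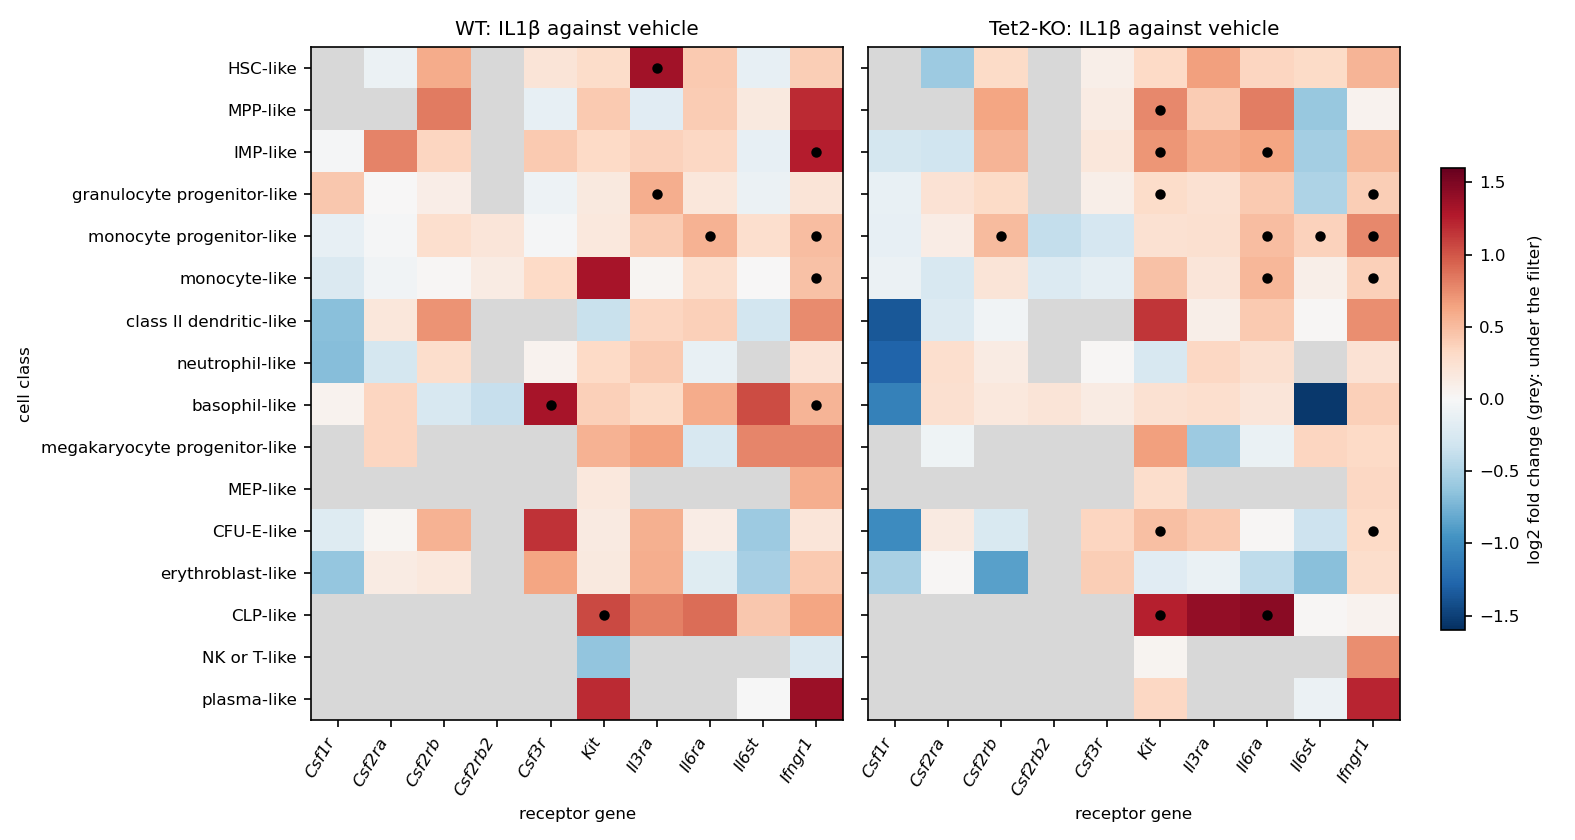
Log2 fold change with IL1β against vehicle for the 10 receptor genes (columns) in 16 cell classes (rows), in WT (left) and Tet2-KO mice (right). Red is higher and blue lower with IL1β, grey pairs were under the filter, and dots mark the 9 and 15 pairs called, all red.

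Ifngr1, the interferon gamma receptor chain, was the receptor with the most upward fits. Its log2 fold change was above 0 in 15 of 16 classes in WT and 16 of 16 in Tet2-KO, and 4 classes were called in each. The same mice supply every class, so these counts are not separate observations. In IMP-like cells of WT mice it was 75.7, 25.5, 58.4 and 64.8 CPM with vehicle and 131, 148, 185 and 117 CPM with IL1β. All 4 IL1β mice lay above all 4 controls (log2 fold change 1.26, SE 0.20, adjusted p = 5.47e-05). In Tet2-KO mice the same class had 84.1, 109.6, 84 and 94.7 CPM with vehicle and 149.8, 99.9, 161 and 131 CPM with IL1β. There the mice overlapped and the call was missed (log2 fold change 0.52, SE 0.19, adjusted p = 0.0543). The WT call held in all 25 alternatives that gave a value. In this class the summed granulocyte progenitor markers, all 6 of them detected in WT mice, went from 3849.7 to 6527 CPM with vehicle to 3804 to 4266 CPM with IL1β. Their part in the result was not tested.

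In monocyte progenitor-like cells Ifngr1 was 148, 169, 134 and 113 CPM in Tet2-KO vehicle mice and 275, 188, 279.8 and 221 CPM in Tet2-KO IL1β mice. These groups did not overlap (log2 fold change 0.77, SE 0.14, adjusted p = 0.000383), and the call held in all 25 alternatives. WT mice had 114, 154, 118 and 122 CPM with vehicle and 170.0, 170.0, 209.9 and 120.3 CPM with IL1β. Here IL1β mouse 4 lay among the controls (log2 fold change 0.50, SE 0.15, adjusted p = 0.0251), and adjusted p reached 0.138 when 1 mouse was left out, the call being lost without WT vehicle mouse 1, WT vehicle mouse 3, WT vehicle mouse 4, WT IL1β mouse 3. In monocyte-like cells Ifngr1 rose in both genotypes, with log2 fold change 0.47, SE 0.13, adjusted p = 0.0282 in WT and log2 fold change 0.38, SE 0.12, adjusted p = 0.049 in Tet2-KO. Both were close to the threshold: with pools as replicates adjusted p was 0.13 and 0.199, the WT call was lost in 6 of 16 fits without 1 mouse, those without WT vehicle mouse 1, 3 or 4 and WT IL1β mouse 1, 2 or 3, and the Tet2-KO call was lost in 14 of 16, the exceptions being WT vehicle mouse 2 and WT IL1β mouse 4.

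Ifngr1 was called in 3 further classes, each in 1 genotype. Granulocyte progenitor-like cells of Tet2-KO mice had 279.8, 319.6, 280.4 and 254 CPM with vehicle and 409, 329.8, 392 and 363 CPM with IL1β, with no overlap (log2 fold change 0.40, SE 0.10, adjusted p = 0.00337). Adjusted p was 0.0574 with pools as replicates. CFU-E-like cells of Tet2-KO mice had 135, 146, 141 and 156 CPM with vehicle and 199.5, 190.2, 157 and 179.7 CPM with IL1β, again without overlap (log2 fold change 0.32, SE 0.09, adjusted p = 0.0181). That call was lost without Tet2-KO vehicle mouse 3 or IL1β mouse 2 and with the hashtag ratio. It was also lost with pools as replicates (adjusted p = 0.135) and with Leiden clusters (adjusted p = 0.156). Basophil-like cells of WT mice had 92, 123, 81.1 and 92.7 CPM with vehicle and 137, 121, 128 and 146 CPM with IL1β, where vehicle mouse 2 overlapped (log2 fold change 0.54, SE 0.16, adjusted p = 0.0478). The 6 summed basophil markers of the class, all detected, were at 35032 to 39035 CPM with vehicle and 21139 to 32725 CPM with IL1β, and their part in the result was not tested. The Ifngr1 call was lost in 7 of 16 fits without 1 mouse, those without WT vehicle mouse 1, 3 or 4 and WT IL1β mouse 1, 2, 3 or 4. Among fits without a WT mouse it held only without vehicle mouse 2. It was also lost with the hashtag ratio, with pools as replicates and with Leiden clusters, and adjusted p reached 0.362 over the alternatives.

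**Figure D3:**
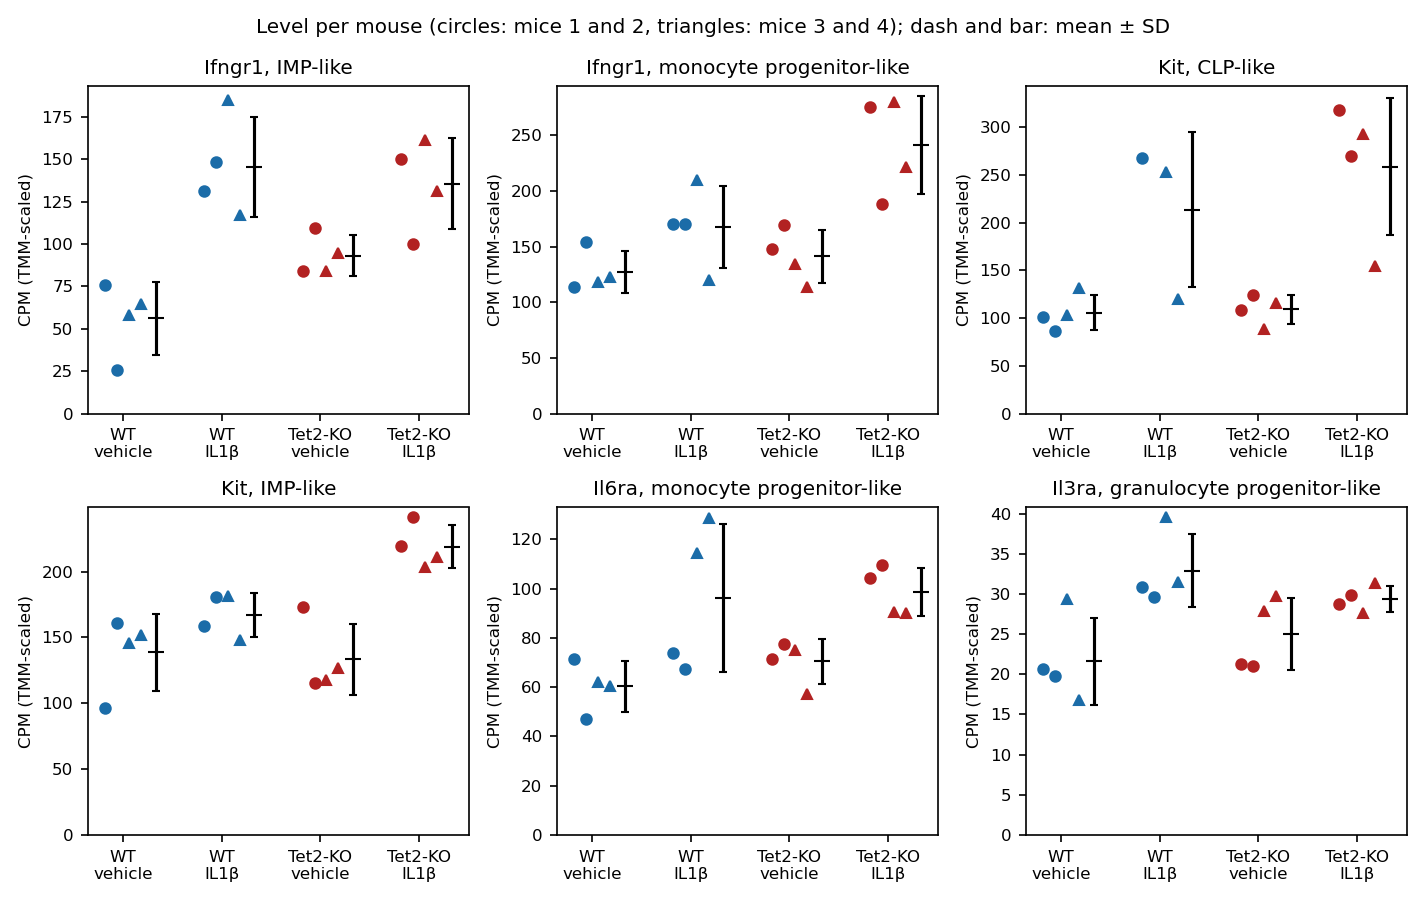
TMM-scaled CPM per mouse (y axis, from 0) in the 4 groups for 6 receptor and class pairs. Circles are mice 1 and 2 and triangles mice 3 and 4, which shared a library, and the dash with its bar gives mean ± SD. For Ifngr1 in IMP-like cells all WT mice with IL1β lie above all WT mice with vehicle, and for Kit in IMP-like and CLP-like cells all Tet2-KO mice with IL1β lie above those with vehicle.

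Kit, the stem cell factor receptor, rose in 5 classes of Tet2-KO mice, CLP-like cells among them, and in CLP-like cells of WT mice. CLP-like cells were gated on Dntt with Flt3, Rag1, Rag2, Ebf1 or Igll1, and Flt3 is also in the MPP-like gate. They had 102, 86.9, 103 and 131 CPM in WT vehicle mice and 268, 253 and 121 CPM in the 3 WT IL1β mice with enough cells. The IL1β mouse at the low end lay within the controls (log2 fold change 1.06, SE 0.24, adjusted p = 0.00877). The call was lost without WT IL1β mouse 1 or 3 and with the hashtag ratio (highest adjusted p 0.263). Tet2-KO mice had 108, 125, 88.6 and 115 CPM with vehicle and 318, 269.8, 294 and 155 CPM with IL1β, with no overlap (log2 fold change 1.25, SE 0.23, adjusted p = 0.00235), and this call held in all 24 alternatives. Few cells stood behind these values, 33, 54 and 16 in the 3 WT IL1β mice and 99 in all Tet2-KO mice with IL1β. The summed CLP markers of the class, all 8 of them detected, were at a mean of 2274 CPM (1836 to 3025) and 1843 (1481 to 2352) in WT and 2039 (1443 to 2617) and 1291 (881 to 2066) in Tet2-KO, vehicle first. Its summed granulocyte progenitor markers, 6 in number, were at 983 (403 to 1426) and 1628 (513 to 2322) in WT and 969.9 (463 to 1606) and 1661 (798 to 3380.1) in Tet2-KO, with 5 of the 6 detected in Tet2-KO IL1β mice. For both marker sums the ranges of vehicle and IL1β mice overlapped in both genotypes. The part of these markers in the Kit values was not tested.

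In IMP-like cells Kit was 173, 116, 117 and 127 CPM in Tet2-KO vehicle mice and 219, 241, 204 and 211 CPM in Tet2-KO IL1β mice. No mouse overlapped (log2 fold change 0.70, SE 0.16, adjusted p = 0.00245), and the call held in all 25 alternatives. In WT the class was at 96.1, 161, 146 and 152 CPM and 158, 181, 181 and 148 CPM, which overlapped (log2 fold change 0.32, SE 0.16, adjusted p = 0.23). CFU-E-like cells of Tet2-KO mice went from 115, 98.9, 129 and 102 CPM to 186, 168, 152 and 135 CPM (log2 fold change 0.48, SE 0.12, adjusted p = 0.012), with adjusted p = 0.0743 for pools as replicates and 0.0743 as the highest over the alternatives, and the call lost without Tet2-KO vehicle mouse 4. Granulocyte progenitor-like cells of Tet2-KO mice went from 89.1, 92.2, 93.1 and 82.1 CPM to 119, 126, 99.2 and 96.4 CPM (log2 fold change 0.30, SE 0.11, adjusted p = 0.0365). This smaller call was lost in 6 of 16 fits without 1 mouse, those without Tet2-KO vehicle mouse 1, Tet2-KO vehicle mouse 2, Tet2-KO vehicle mouse 3, Tet2-KO vehicle mouse 4, Tet2-KO IL1β mouse 1, Tet2-KO IL1β mouse 2, and reached adjusted p = 0.159 over the alternatives. MPP-like cells of Tet2-KO mice, with 3 mice a group, went from 172, 206 and 164 CPM to 316, 314 and 299 CPM and sat at the threshold (log2 fold change 0.77, SE 0.23, adjusted p = 0.04999), with adjusted p up to 0.24 over the alternatives. It was kept without WT vehicle mouse 1 and without WT IL1β mouse 1, but lost without each of the other 11 mice that could be left out. HSC-like cells, the top class, were not called: 330.2 ± 39 (SD, n = 4) and 408 ± 23.8 (SD, n = 4) in Tet2-KO mice (log2 fold change 0.32, SE 0.15, adjusted p = 0.183, 95% interval 0.02 to 0.62).

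The IL6 receptor chain Il6ra rose in monocyte progenitor-like cells of both genotypes. WT mice had 71.6, 46.9, 62.1 and 60.6 CPM with vehicle and 74, 67.3, 115 and 129 CPM with IL1β, with IL1β mouse 2 inside the control range (log2 fold change 0.55, SE 0.16, adjusted p = 0.0213). Tet2-KO mice had 71.6, 77.6, 75.3 and 57.4 CPM and 104, 109, 90.4 and 90.1 CPM without overlap (log2 fold change 0.49, SE 0.15, adjusted p = 0.02). With pools as replicates adjusted p was 0.132 and 0.109. The WT call was lost without WT vehicle mouse 3, WT vehicle mouse 4, WT IL1β mouse 3, WT IL1β mouse 4, and the Tet2-KO call without Tet2-KO vehicle mouse 4, Tet2-KO IL1β mouse 1, Tet2-KO IL1β mouse 2. Another 3 classes were called in Tet2-KO mice. CLP-like cells went from 37.9, 35.6, 24.6 and 28.9 CPM to 69.6, 86.3, 108 and 80.5 CPM without overlap (log2 fold change 1.44, SE 0.35, adjusted p = 0.0173), beside the marker levels of that class given for Kit. Lost without Tet2-KO vehicle mouse 3, Tet2-KO vehicle mouse 4, Tet2-KO IL1β mouse 2, that call reached adjusted p = 0.0734. IMP-like cells went from 54.9, 42.6, 39.6 and 58.5 CPM to 98, 83.1, 73.6 and 64.7 CPM (log2 fold change 0.63, SE 0.21, adjusted p = 0.0391), and monocyte-like cells from 138, 134, 122 and 155 CPM to 199, 228, 169.8 and 192 CPM (log2 fold change 0.53, SE 0.16, adjusted p = 0.0465), neither with overlap. Over their alternatives these reached 0.164 and 0.167. Of 16 fits without 1 mouse, 6 and 10 lost the call, among them those without Tet2-KO vehicle mouse 2, 3 or 4 and Tet2-KO IL1β mouse 1 or 2 for both. The partner chain Il6st was called once, in monocyte progenitor-like cells of Tet2-KO mice, from 75.2, 63, 79.3 and 81.7 CPM to 123, 85, 96.5 and 88.3 CPM (log2 fold change 0.37, SE 0.13, adjusted p = 0.0353). It was lost without Tet2-KO vehicle mouse 1, Tet2-KO vehicle mouse 2, Tet2-KO vehicle mouse 3, Tet2-KO IL1β mouse 1, Tet2-KO IL1β mouse 3, with adjusted p up to 0.181.

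The IL3 receptor alpha chain Il3ra was called in WT mice alone, in 2 classes. Granulocyte progenitor-like cells had 20.6, 19.8, 29.3 and 16.8 CPM with vehicle and 30.9, 29.6, 39.6 and 31.4 CPM with IL1β, with every IL1β mouse above every control (log2 fold change 0.59, SE 0.16, adjusted p = 0.0101). In Tet2-KO mice the same class had 21.3, 21.1, 27.8 and 29.8 CPM and 28.7, 29.9, 27.7 and 31.4 CPM, and these groups overlapped (log2 fold change 0.25, SE 0.14, adjusted p = 0.184). The difference between the genotypes in this response was not called (interaction log2 -0.34, adjusted p = 0.986). HSC-like cells of WT mice went from 32.5, 0, 22.5 and 11.7 CPM to 38.2, 43.6, 62 and 66.2 CPM (log2 fold change 1.35, SE 0.38, adjusted p = 0.0311). The 0 was WT vehicle mouse 2, with 16 cells and 43104 UMIs in the class. The call was lost without WT vehicle mouse 3, WT vehicle mouse 4 or WT IL1β mouse 3, by DESeq2 and with pools as replicates (adjusted p = 0.0754). Over its alternatives adjusted p reached 0.23. The call in granulocyte progenitor-like cells was lost without WT vehicle mouse 4 or WT IL1β mouse 3 (highest adjusted p 0.0688). In its top class, the basophil-like cells, Il3ra was not called (log2 fold change 0.30, SE 0.17, adjusted p = 0.314 in WT, log2 fold change 0.27, SE 0.16, adjusted p = 0.332 in Tet2-KO).

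The shared beta chain Csf2rb was called in monocyte progenitor-like cells of Tet2-KO mice, from 64.9, 60.3, 36.2 and 51.1 CPM to 74.7, 62.1, 93.9 and 74 CPM, where IL1β mouse 2 lay inside the control range (log2 fold change 0.51, SE 0.16, adjusted p = 0.0186). It was lost without Tet2-KO vehicle mouse 3, Tet2-KO IL1β mouse 3 and with pools as replicates, with adjusted p = 0.101 at its highest. Of the 10 receptors, all passed the filter in this class, and in Tet2-KO mice 4 of them were called (Csf2rb, Il6ra, Il6st and Ifngr1), beside 9.85% of all its genes called higher and 22.4% called in either direction. With pools as replicates Csf2rb, Il6ra and Il6st lost the call. Csf3r was called in basophil-like cells of WT mice, which had 9.47, 0, 14.1 and 8.29 CPM with vehicle and 27.5, 17.3, 25.9 and 26.6 CPM with IL1β. These groups did not overlap (log2 fold change 1.32, SE 0.39, adjusted p = 0.0441). In the class the summed neutrophil markers, all 8 detected, were at 727 to 2277 CPM with vehicle and 1714 to 2414 CPM with IL1β, and the basophil markers were lower with IL1β, as given for Ifngr1. Their part was not tested. That call was lost in 7 of 16 fits without 1 mouse, those without WT vehicle mouse 1, 2, 3 or 4 and WT IL1β mouse 1, 3 or 4. Among fits without a WT mouse it held only without IL1β mouse 2. It was also lost by DESeq2, by clusters, with the hashtag ratio and with pools as replicates. Over the alternatives adjusted p was up to 0.177. In its own classes Csf3r was not called: neutrophil-like cells were at log2 fold change 0.05, SE 0.22, adjusted p = 0.947 in WT and log2 fold change 0.02, SE 0.21, adjusted p = 0.985 in Tet2-KO, and granulocyte progenitor-like cells at log2 fold change -0.08, SE 0.11, adjusted p = 0.666 and log2 fold change 0.10, SE 0.11, adjusted p = 0.507.

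Csf1r, the receptor of the macrophage line, had mostly negative fold changes, none of them called. Its log2 fold change with IL1β was below 0 in 9 of 9 classes of Tet2-KO mice and 7 of 9 of WT mice, with medians of -0.52 and -0.20 (0 called by edgeR and DESeq2, 2 and 0 at an unadjusted p under 0.05 by edgeR, lowest adjusted p 0.093 and 0.324). Scaled by library totals alone, 8 of 9 and 5 of 9 were below 0. The same mice supply every class, so these counts are not separate observations. Several of the classes held little Csf1r. In Tet2-KO mice CFU-E-like cells were at 1.19 to 4.64 CPM, granulocyte progenitor-like cells at 6.01 to 8.38 CPM and neutrophil-like cells at 0 to 19.3 CPM. Monocyte-like cells had 133, 119, 138 and 132 CPM with vehicle and 126, 127, 111 and 126 CPM with IL1β in Tet2-KO mice, and the groups overlapped (95% interval of the log2 fold change -0.39 to 0.19). In WT mice the levels were 121, 63.4, 147 and 119.5 CPM and 101, 156, 93.4 and 68.4 CPM (95% interval -0.55 to 0.08). Monocyte progenitor-like cells of Tet2-KO mice overlapped too, at 55.4 to 79.7 CPM with vehicle and 54.5 to 77.3 CPM with IL1β. Class II dendritic-like cells of Tet2-KO mice had 82.1, 145, 55.6 and 39.7 CPM with vehicle and 57.5, 14.7, 28.2 and 21.7 CPM with IL1β (log2 fold change -1.35, SE 0.53, adjusted p = 0.237). Csf2ra was called nowhere: in monocyte-like cells, its top class, the 95% intervals of the log2 fold change were -0.32 to 0.20 in WT and -0.50 to -0.00 in Tet2-KO. Csf2rb2, tested in 3 classes, was called in none, and in basophil-like cells the intervals were -0.83 to 0.10 and -0.24 to 0.66.

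The WT and Tet2-KO responses to IL1β share no mouse. Of the 20 pairs called in either, 4 were called in both: Kit in CLP-like cells, Il6ra in monocyte progenitor-like cells, and Ifngr1 in monocyte progenitor-like and monocyte-like cells, which is 44.4% of the WT and 26.7% of the Tet2-KO calls. Over all gene and class pairs called higher, the shared ones were 51.5% of the WT and 39.3% of the Tet2-KO calls. A call in 1 genotype does not show a difference between them. The interaction called no receptor pair (0 of 115 by edgeR, 0 by DESeq2, lowest adjusted p 0.425), beside 0.00379% of all pairs called. The 8 pairs at an unadjusted p under 0.05 by edgeR have no share of all pairs beside them and are not read as a result. The largest interaction was Il6st in basophil-like cells (log2 -2.59, SE 0.87, 95% interval -4.30 to -0.89), called only without the filter on low counts. Il6st was low in that class, at 0 to 24.3 CPM in a mouse. For Ifngr1 in IMP-like cells the Tet2-KO response minus the WT response was -0.74 log2 (SE 0.27, 95% interval -1.27 to -0.20, adjusted p = 1). For Kit in IMP-like cells it was 0.38 (95% interval -0.06 to 0.83).

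**Figure D4:**
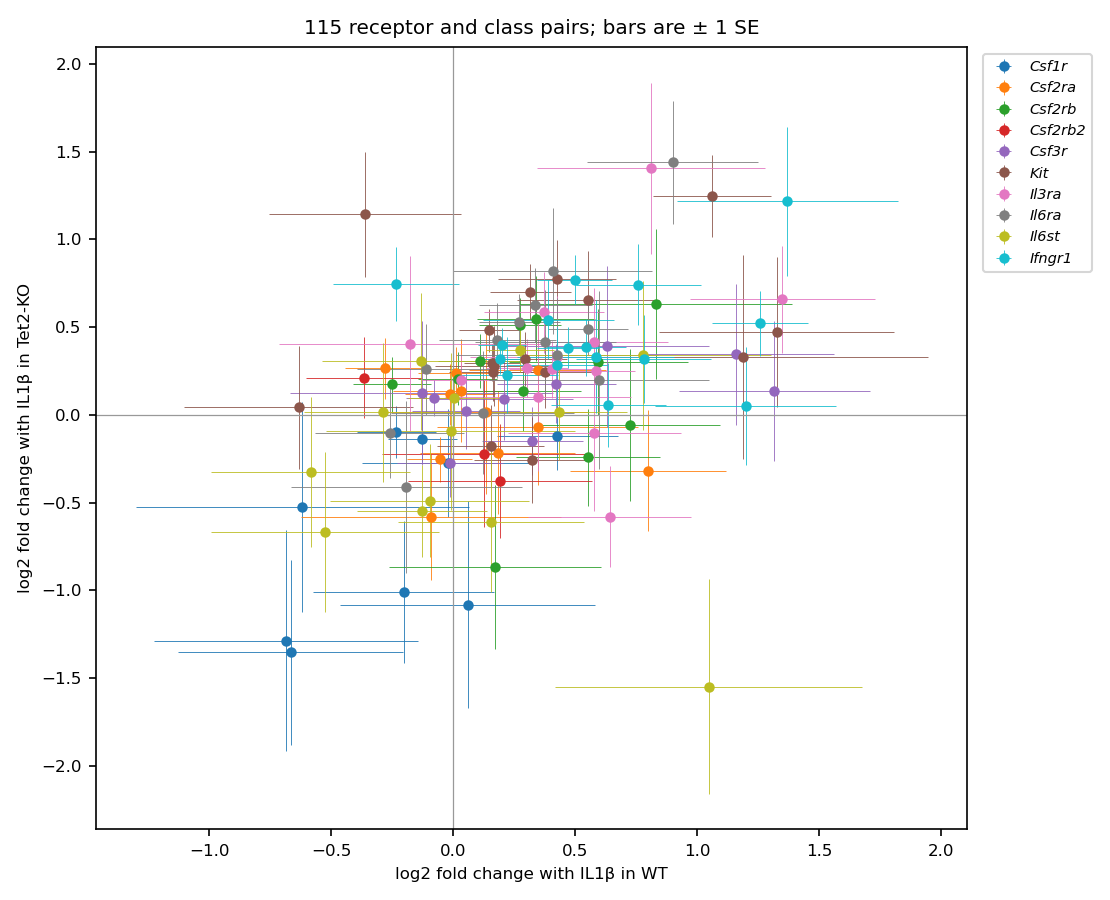
Log2 fold change with IL1β in WT (x axis) and in Tet2-KO mice (y axis) for the 115 tested receptor and class pairs, coloured by receptor, with bars of 1 SE. Most pairs lie right of and above 0 (85 of 115 in WT, 81 of 115 in Tet2-KO), while the Csf1r points lie below 0 in Tet2-KO.

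The second question was whether loss of Tet2 changed the receptors. No pair was called between Tet2-KO and WT with vehicle (0 of 115 by edgeR, 0 by DESeq2, lowest adjusted p 0.565), beside 0.0265% of all pairs called. With IL1β none was called either (0 of 115 by edgeR, 0 by DESeq2, lowest adjusted p 0.133), beside 0.0673% of all pairs called. At an unadjusted p under 0.05 by edgeR there were 6 pairs with vehicle and 21 with IL1β. No share of all pairs at that cut is given, so these counts are not read as a result. Without the filter on low counts, Ifngr1 in monocyte progenitor-like and Il6st in basophil-like cells were called with IL1β. Leiden clusters called Ifngr1 in NK or T-like cells. The genotype comparisons share mice with the IL1β comparisons above. Ifngr1 in IMP-like cells with vehicle was 25.5 to 75.7 CPM in WT and 84 to 109.6 CPM in Tet2-KO mice, with no overlap but no call (log2 fold change 0.54, SE 0.21, adjusted p = 1, 95% interval 0.13 to 0.95). In NK or T-like cells with IL1β it was 137, 260.2 and 273 CPM in 3 WT mice and 419.9, 415, 341 and 414 CPM in Tet2-KO mice (log2 fold change 0.79, SE 0.23, adjusted p = 0.133), and in monocyte progenitor-like cells it was log2 fold change 0.49, SE 0.14, adjusted p = 0.506. Kit in IMP-like cells with IL1β was 148 to 181 CPM in WT and 204 to 241 CPM in Tet2-KO mice, which did not overlap (log2 fold change 0.39, SE 0.15, adjusted p = 0.563). Csf2ra in monocyte-like cells with IL1β was at 168 ± 7.68 (SD, n = 4) in WT and 131 ± 15 (SD, n = 4) in Tet2-KO mice (log2 fold change -0.34, SE 0.13, adjusted p = 0.697). For Kit in HSC-like cells the 95% interval was -0.18 to 0.46 with vehicle and -0.15 to 0.49 with IL1β.

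Around the receptors, 75 further genes of the pathway were read in 5 lists, counted in gene and class pairs with IL1β. Over all genes 3.63% of pairs were higher in WT and 4.75% in Tet2-KO mice, and 9.24% and 11.3% were called in either direction. Ligands gave 1 of 17 pairs higher in WT (5.88%) and 0 of 17 in Tet2-KO (edgeR), a list too small to read against that background. The WT pair was Osm, a cytokine that signals through gp130, in HSC-like cells, at a mean of 6.38 CPM (0 to 16.2) with vehicle and 47.8 CPM (27.0 to 66.2) with IL1β (log2 fold change 2.58, SE 0.58, adjusted p = 0.00537). Other cytokine receptors gave 9 higher and 4 lower of 165 pairs in WT, and 16 and 4 in Tet2-KO. The shares called, 7.88% and 12.1%, were near those of all pairs. Flt3, a gene of the MPP-like and CLP-like gates, gave 1 and 4 of the higher pairs, in other classes, and without it 8 and 12 of 153 pairs were higher. Ifngr2, the partner of Ifngr1, rose in IMP-like cells of WT mice, from 19.4 CPM (8.49 to 28.6) to 58.0 CPM (40.8 to 76.4) with no overlap (log2 fold change 1.26, SE 0.31, adjusted p = 0.00675). Il1rap, the accessory chain of the IL1 receptor, rose in erythroblast-like cells of WT mice (1.38, adjusted p = 0.0484 by edgeR). Its levels were low and overlapped, at 1.04 to 6.51 CPM with vehicle and 5.57 to 11.3 CPM with IL1β. Tnfrsf1b, a TNF receptor, rose in CFU-E-like cells of WT mice (1.33), also at low levels, 0 to 4.68 CPM with vehicle and 4.97 to 12.7 CPM with IL1β. In Tet2-KO mice the largest were Il7r, the IL7 receptor of lymphoid cells, in class II dendritic-like cells (4.49, from 3.19 CPM, 0 to 7.22, to 113 CPM, 42.2 to 154), Lifr, which pairs with gp130, in monocyte-like (1.85) and Il10ra, the IL10 receptor, in HSC-like cells (1.43). The dendritic class held 321 cells in Tet2-KO vehicle mice but 96 in Tet2-KO IL1β mice, 10 to 37 per mouse. Whether its make-up differed between these groups was not tested. Il7r also fell in CLP-like cells of Tet2-KO mice (-2.37), beside the marker levels of that class given for Kit, whose part was not tested.

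Kinases, STATs and adaptors gave 7 of 214 pairs higher in WT and 12 in Tet2-KO, and none lower. These shares, 3.27% and 5.61%, were near the 3.63% and 4.75% of all pairs that were higher and below the 9.24% and 11.3% called in either direction. Stat3, the factor downstream of gp130 and the G-CSF receptor, rose in monocyte progenitor-like cells of WT mice from 24.6 CPM (13.4 to 34.3) to 58.4 CPM (48.3 to 68.7), with no overlap (log2 fold change 1.02, SE 0.16, adjusted p = 0.000138). In IMP-like cells of Tet2-KO mice it rose from 50.9 CPM (36.5 to 60.1) to 107.5 CPM (92.0 to 118.0) (0.97, SE 0.19, adjusted p = 0.000765). The others named by size were the adaptor Gab2 in CFU-E-like (1.05) and the kinase Jak2 in granulocyte progenitor-like cells (0.48) of WT mice, and the factor Stat5b in CLP-like (1.20) and the kinase Lyn in HSC-like cells (0.87) of Tet2-KO mice. Stat5b went from 39.4 to 71.3 CPM in the vehicle mice to 69.6 to 155 CPM in the IL1β mice, which overlapped, beside the same marker levels of CLP-like cells. Feedback inhibitors gave 7 and 8 of 76 pairs higher and none lower. These shares, 9.21% and 10.5%, stood as those of the 10 receptors did, near the 9.24% and 11.3% of all pairs called in either direction and above the 3.63% and 4.75% called higher. Cish, a SOCS family inhibitor of STAT5 signalling, led with 2.76 in erythroblast-like cells of WT mice (0.982 to 9.42 CPM in the means) and 4.18 in NK or T-like cells of Tet2-KO mice (3.73 to 71.7 CPM), followed by Socs2 in NK or T-like cells (2.51) and Cbl, a ubiquitin ligase that acts on Kit and Csf1r, in IMP-like cells of WT (0.75) and HSC-like cells of Tet2-KO mice (0.60). Targets gave 13 and 17 of 105 pairs higher (12.4% and 16.2%, beside the same 3.63% and 4.75% higher and 9.24% and 11.3% in either direction) and none lower. Pim1, a kinase gene induced by STAT factors, was called in 10 of 16 classes of WT and 6 of 16 of Tet2-KO mice, with CLP-like cells first (2.24, adjusted p = 0.000176, and 2.04, adjusted p = 0.000358). There the WT mice overlapped (139 to 308 CPM with vehicle and 282 to 1779 CPM with IL1β) and the Tet2-KO mice did not, and the marker levels of the class are given for Kit. Irf1, an interferon response factor, rose in CFU-E-like cells of both genotypes (1.99 and 1.66) and in 6 of 15 classes of Tet2-KO mice. Mcl1, a survival gene, rose in HSC-like cells of WT (1.07) and Cd274, which encodes PD-L1, in HSC-like cells of Tet2-KO mice (1.92). No gene of the 5 lists was called between genotypes or in the interaction by edgeR. The medians of the 5 lists with IL1β were between 0.06 and 0.81 log2 in WT and between 0.16 and 0.59 in Tet2-KO.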

How the data were processed

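The authors deposited counts of UMIs per gene and barcode, made per the labels with Cell Ranger 3.1.0 on mm10 (Seurat 3.2.3 downstream), and counts of hashtag UMIs. Cells with at least 750 genes and at most 10% mitochondrial UMIs were kept and assigned to mice with HTODemux (Seurat 5.3.0); 3938 cells positive for both hashtags were dropped as doublets, and 33083 (34.9%) had no call. The 18 classes were gated on marker UMIs; 2642 cells in several gates and 14045 in none were left out. UMIs were summed per mouse and class (at least 10 cells, at least 3 mice in every group), and tested in edgeR 4.0.16 (filterByExpr, TMM, quasi-likelihood F test, 1 fit over the 4 groups, Benjamini-Hochberg over all genes of a class, 5 comparisons), in R 4.3.3. Two-sided p-values measure the spread between mice. Intervals are log2 fold change ± 1.96 SE and cover the fit alone.

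Alternatives were RLE factors, DESeq2 1.42.0, no filter, a pool block, sex, at least 30 cells, a hashtag ratio, pools as replicates, Leiden clusters and each mouse left out; scaling by library totals alone was added after seeing the data. Mouse numbers did not pair samples: over classes, mean correlations of same-numbered mice of other groups were -0.02 to 0.06. The receptors, lists and tests were chosen with earlier results of these data known. All 10 receptors are described; for each, the 3 genes nearest by r among those at 5 CPM or more in a class, and per list and comparison up to 3 called genes of the largest change, are named, 1 class each; Il7r in CLP-like cells was added after its values were seen. Promoters are from RefSeq (GRCm38.p6), which held 8 of the 10 receptors.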

Additional observations from a re-analysis of the deposited data

Results flagged for a closer look

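In 54 groups of 4 mice behind the receptor and class pairs looked at, 3 held a mouse whose gap to the nearest of the others was large against the group's range; chance gives such a gap in about 1 group in 20. Csf2ra in monocyte-like cells of WT vehicle mouse 2 was 233 CPM, while the other 3 mice lay between 168 and 175 CPM. That mouse had the fewest assigned cells of all, 698. Csf3r in basophil-like cells of WT IL1β mouse 2 was 17.3 CPM, below 25.9 to 27.5 CPM in the other mice of its group. Csf3r in neutrophil-like cells of WT vehicle mouse 1 was 53.9 CPM, below 79.2 to 81.3 CPM in the others. Neither neutrophil-like Csf3r nor monocyte-like Csf2ra was called with IL1β, and Csf3r in basophil-like cells was called in WT mice with the low IL1β mouse included.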

How the results depend on the processing

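Of 603 recomputed values for the 24 called receptor and class pairs, 465 kept their direction and side of the threshold, 138 kept their direction but not the call, and 0 reversed. The values include fits without a mouse of the other genotype, which bears on a comparison only through the shared fit. The pairs that kept the call in every alternative run were 4: Ifngr1 in IMP-like cells of WT mice, and Kit in IMP-like cells, Kit in CLP-like cells and Ifngr1 in monocyte progenitor-like cells of Tet2-KO mice. For the counts of 9 pairs in WT and 15 in Tet2-KO mice with IL1β, pools as replicates gave 4 and 7, library totals without scaling factors (chosen after seeing the data) 15 in WT, and leaving out each mouse 2 to 10 and 6 to 16. By DESeq2 the calls of Csf3r in basophil-like and Il3ra in HSC-like cells of WT mice were lost. In Tet2-KO mice DESeq2 lost Kit in MPP-like, Il6ra in IMP-like, Il6st in monocyte progenitor-like and Ifngr1 in monocyte-like cells. With the hashtag ratio the calls of Csf3r and Ifngr1 in basophil-like and Kit in CLP-like cells of WT mice were lost. In Tet2-KO mice the hashtag ratio lost Kit in granulocyte progenitor-like, Il6ra in monocyte-like, Il6st in monocyte progenitor-like and Ifngr1 in CFU-E-like cells. Without a filter on low counts, 2 pairs were called between Tet2-KO and WT with IL1β (Ifngr1 in monocyte progenitor-like and Il6st in basophil-like cells) and 1 in the interaction (Il6st in basophil-like cells); Leiden clusters called 1 with IL1β (Ifngr1 in NK or T-like cells). These were 0 otherwise. The cause of these shifts was not tested. The replicate block, by pool number, gave 10 and 17 calls and changed no other count; the pool numbers are names only, so a change of call under it says nothing of the effect. Leiden clusters held no IMP, MPP or monocyte progenitor class, so pairs there have no value under that alternative. Of the gated monocyte progenitor-like cells, 72.6% lay in a cluster named granulocyte progenitor. The HSC cluster held 52.1% of the MPP-like cells, and an unnamed cluster 58.6% of the IMP-like cells. Eosinophil-like and plasmacytoid dendritic-like cells could not be tested because in some groups fewer than 3 mice had at least 10 cells. Among the tested classes, 2 receptors passed the filter in MEP-like and in NK or T-like cells, 3 in plasma-like and 5 in CLP-like cells, so the other receptors there were too low in UMIs to be tested at this depth.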
